A study of Mus musculus with 37 samples.

Results

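The genes described here are named for proteins of the mitochondrial ribosome. They were chosen by name, as every gene of the expression table whose symbol is Mrpl or Mrps followed by a number and at most 1 letter, with a mean of at least 1 FPKM (fragments per kilobase of gene length, here on a scale set by the median ratio of genes between libraries and not by the total of each library) over all 37 libraries. The pattern matched 78 of the 56748 genes in the table and 77 of them met the minimum. Of these, 50 were counted for the large subunit and 27 for the small subunit, Mrps36 among the latter by its symbol alone. The gene left out, Mrpl53, was listed at 0 in every library. The members nearest the limit on the inside were Mrps10 at 3.03 FPKM and Mrps25 at 3.68 FPKM. All 77 members passed the filter on low values and were tested, among 16530 genes.

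The mitochondrial ribosome translates the few messenger RNAs made from the mitochondrial genome, which encode core subunits of the respiratory chain and of ATP synthase. Its ribosomal RNAs come from that genome, whereas its proteins are encoded in the nucleus and imported. Heart muscle is rich in mitochondria, and inherited defects of several of these proteins cause cardiomyopathy.

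The libraries came from left ventricles of male and female C57BL/6J mice aged 8 to 10 weeks, which were all anaesthetised with isoflurane. Naïve mice (n = 5) received anaesthesia and no injection. Adr mice, called sham in the sample labels, were ventilated, received 40 µL of saline into the left ventricle and were given 500 µL of adrenaline at 15 µg/mL after 8 min. Arrest mice were ventilated too and received 40 µL of 0.5 M potassium chloride in place of saline, which stopped the heart. They were given the same adrenaline after 8 min of asystole, and chest compressions then followed, in this group only. Hearts were taken after 0.5, 1, 3 or 7 days (n = 4 in each of the 8 groups). Naïve mice were killed after their baseline echocardiography, whereas the others recovered and had a second one first. A comparison with Naïve therefore also holds ventilation, the injection, adrenaline, the time of recovery and the second echocardiography. Arrest and Adr at the same time differ in the potassium chloride, the arrest and the chest compressions, which cannot be told apart. The labels do not say which libraries came from the same day or cohort.

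Between 13.2 and 30.2 M fragments were counted on genes per library. The 7 cardiomyocyte markers looked at were all present, and 5 of 7 neutrophil, 3 of 4 fat and 3 of 4 skeletal muscle markers had means under 1 FPKM. The Adr 3 d library of replicate 3 stood apart. The mitochondrial genome gave 9.36% of its fragments against 20.8% to 30.9% in the other libraries, its summed macrophage markers reached 902 FPKM against 126 to 438 FPKM in the groups other than Adr 3 d, and its summed cardiomyocyte markers were the lowest of the 37 libraries. The study's methods state that 1 Adr sample from 3 days was left out for poor quality, and the labels do not say which. In whole tissue, fewer cells of a type and less RNA per cell cannot be told apart.

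Mitochondrial ribosomal protein genes were expressed well above the typical gene. Their median mean level was 16.8 FPKM, against 2.65 FPKM over all tested genes, which put the median member at percentile 87.2. Levels per length ran over a 48.0-fold range. The highest were Mrps21 (145 FPKM), Mrpl12 (115 FPKM), a protein of the stalk that recruits translation factors, Mrpl34 (109 FPKM), Mrpl42 (85.4 FPKM) and Mrps23 (81.2 FPKM). The lowest were Mrps10 (3.03 FPKM), Mrps25 (3.68 FPKM), Mrps5 (4.17 FPKM), Mrpl19 (4.20 FPKM) and Mrps22 (4.54 FPKM). Large-subunit members had a median of 17.0 FPKM and small-subunit members 14.8 FPKM. The level fell with gene length over the 77 members (Spearman rho = -0.77, a description over genes that share libraries). FPKM divides by the gene length in the table, which ran from 607 to 8631 bases over the members. The order of the members was nearly the same in all groups, with Spearman correlations of 0.97 to 0.99 between the Naïve means and those of each other group.

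Levels were highest at the early times. The highest of the 9 group means was in Arrest 1 d for 48 of 77 members and in Adr 0.5 d for 11, and the lowest was in Adr 3 d for 28. The Adr 3 d means include replicate 3, the library that stood apart. The members took 0.396 ± 0.031% of all fragments in Naïve (SD, n = 5), 0.478 ± 0.031% in Adr 0.5 d, 0.484 ± 0.035% in Adr 1 d, 0.454 ± 0.037% in Arrest 0.5 d and 0.485 ± 0.032% in Arrest 1 d (SD, n = 4 each). At 3 and 7 days the means lay between 0.394% and 0.423%. The lowest Arrest 1 d library, at 0.439%, lay above the highest Naïve library, at 0.431%. Within groups the members also varied together from library to library, with a median correlation of 0.37 over 2926 pairs of members, of which 92.9% were above 0. This is a description of pairs that share the same libraries. Adr 3 d replicate 3, in which the members' median was -0.59, was among these libraries. Pairs of other genes were not looked at, so the correlation cannot be called particular to the members.

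**Figure D1:**
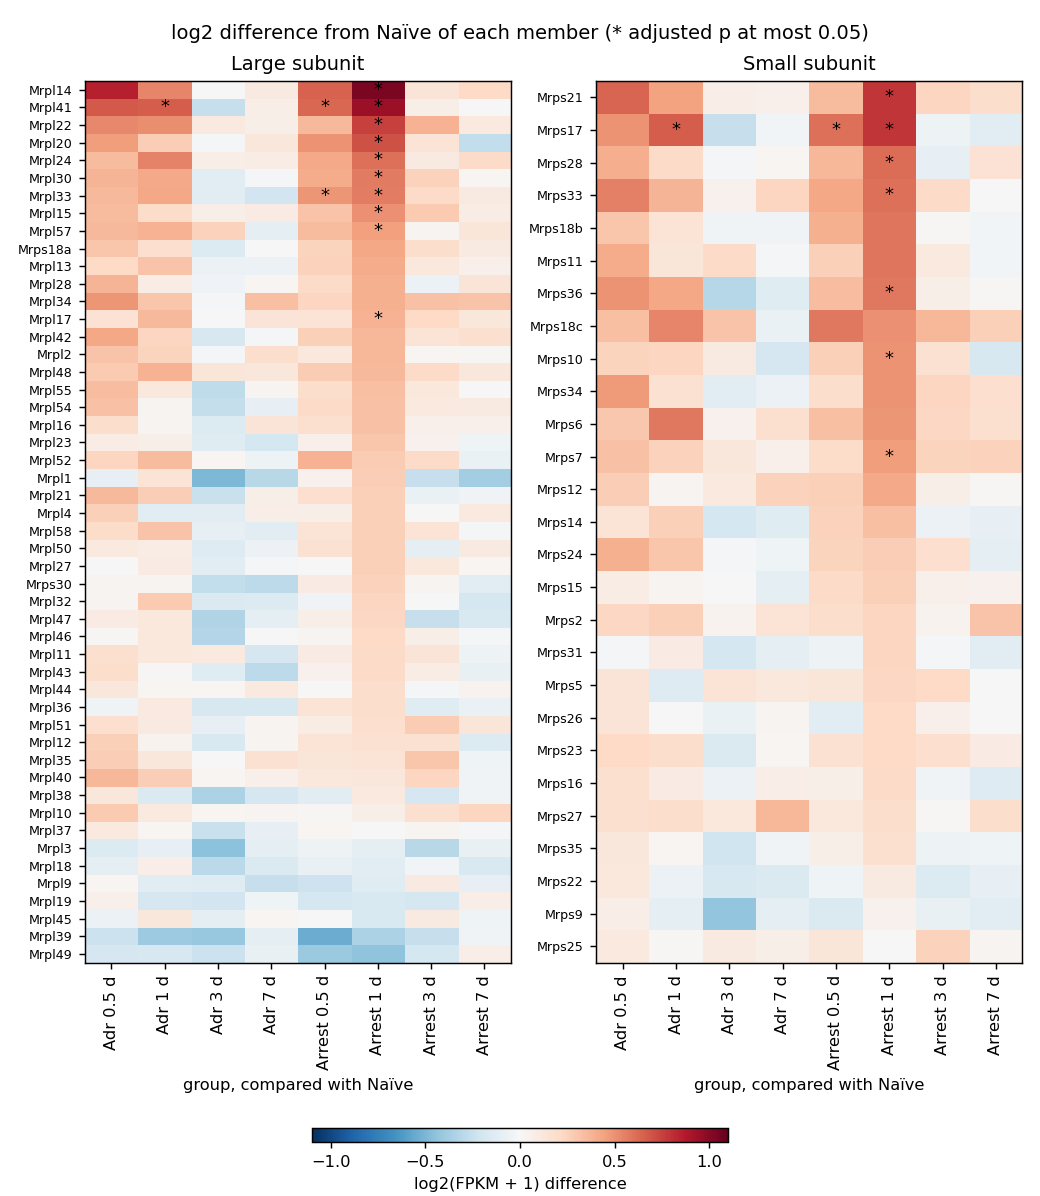
Heat map of the fitted log2(FPKM + 1) difference from Naïve (colour) for each of the 77 members (rows, by subunit, ordered by the Arrest 1 d value) in each of the 8 Adr and Arrest groups (columns). Asterisks mark adjusted p-values of at most 0.05, and 17 of them stand in the Arrest 1 d column.

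Each library's median over the members showed the same course. Relative to the Naïve mean on the log2(FPKM + 1) scale, the Naïve libraries ran from -0.11 to 0.10 and the Arrest 1 d libraries from 0.23 to 0.45, without overlap. The Adr 0.5 d libraries ran from 0.11 to 0.39 and also lay above all Naïve libraries. The Adr 1 d libraries (0.07 to 0.29) and the Arrest 0.5 d libraries (-0.03 to 0.34) overlapped Naïve, as did all groups at 3 and 7 days. The Adr 3 d libraries ran from -0.59 to 0.22, and the lowest value was that of replicate 3.

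**Figure D2:**
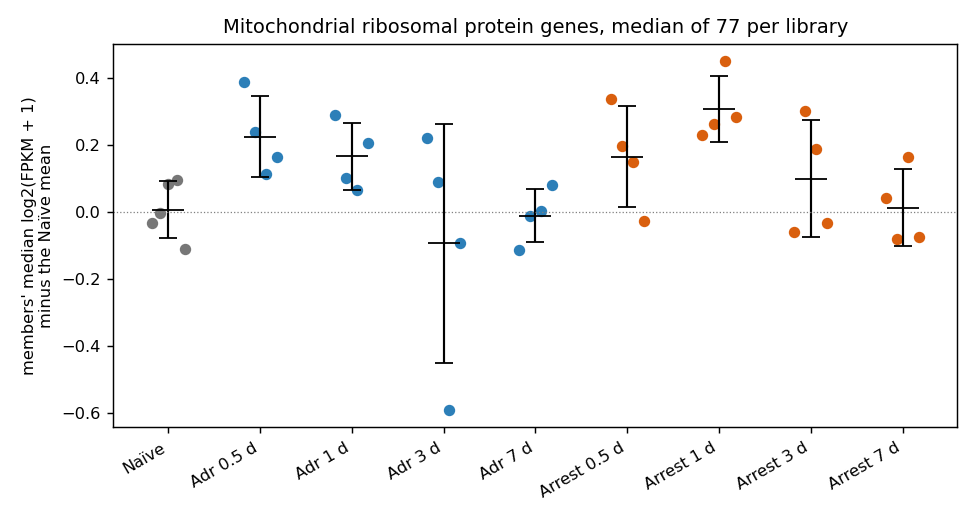
Median over the 77 members of log2(FPKM + 1) minus the Naïve mean (vertical axis) for each of the 37 libraries (points) by group, with the group mean and SD (bars, n = 5 for Naïve and 4 for the others). The 4 Arrest 1 d libraries, at 0.23 to 0.45, lie above all 5 Naïve libraries, and Adr 3 d replicate 3 lies at -0.59.

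At 1 day after arrest, 17 of the 77 members rose against Naïve and none fell (limma, adjusted p at most 0.05 over all tested genes). That is 22.1% of the members, beside 7.11% of all tested genes called in either direction and 3.88% called higher. The median difference of the members was 0.26 on the log2 scale and 69 of 77 were above 0, against a median of 0.03 over all tested genes. Of the 3513 other tested genes whose length and level lay between the members' 10th and 90th percentiles, 11.3% were called in either direction, 8.06% were called higher and the median was 0.08. For each member, the 100 other genes nearest in length and level were also taken, and 53 of 77 members lay above the median of their own 100. On average 13.7% of these nearest genes were called in either direction. The medians of the nearest genes had themselves a median of 0.14. The members' distance from these medians had a median of 0.16, so part of the members' shift was shared by such genes. These comparisons of lists are descriptions and carry no test. In 21 members (27.3%) all 4 Arrest 1 d libraries lay above all 5 Naïve libraries, which was so for 5.71% of all tested genes. In no member did all 4 lie below, which was so for 4.8% of all tested genes.

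The small subunit, with Mrps36 counted in it by its symbol, gave 7 of the 17 members that rose and the large subunit 10. All 27 small-subunit members had differences above 0, with a median of 0.33, and 42 of 50 large-subunit members, with a median of 0.26. By the number in the symbol, which only roughly separates proteins with a bacterial counterpart from those particular to mitochondria, 12 of 42 members of the first kind rose (median 0.32) and 5 of 35 of the second (median 0.23). Whether these shares differ was not tested.

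The count of called members depended on single libraries and settings. Leaving out 1 library at a time gave 5 to 21 called members and medians of 0.22 to 0.32, while the calls over all tested genes ran from 487 to 1703 in the same fits. The count was 10, 10 and 8 without Naïve replicates 1, 2 and 5. It was 8, 7, 5 and 11 without Arrest 1 d replicates 1, 2, 3 and 4. It was 21 without Adr 3 d replicate 3 and 15 without Naïve replicate 4, in which the fewest genes (13475) were above 0. The lowest and highest counts of members and of all genes came from the same fits, those without Arrest 1 d replicate 3 and without Adr 3 d replicate 3. A number given to each sample in its label ran from 116 to 127 in Naïve and from 70 to 95 in Arrest 1 d, without overlap, and its meaning is not stated. With that number as a covariate only Mrps17 was called among the members (adjusted p = 0.0284 with limma), 34 genes were called in all, and the members' median was 0.36.

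**Figure D3:**
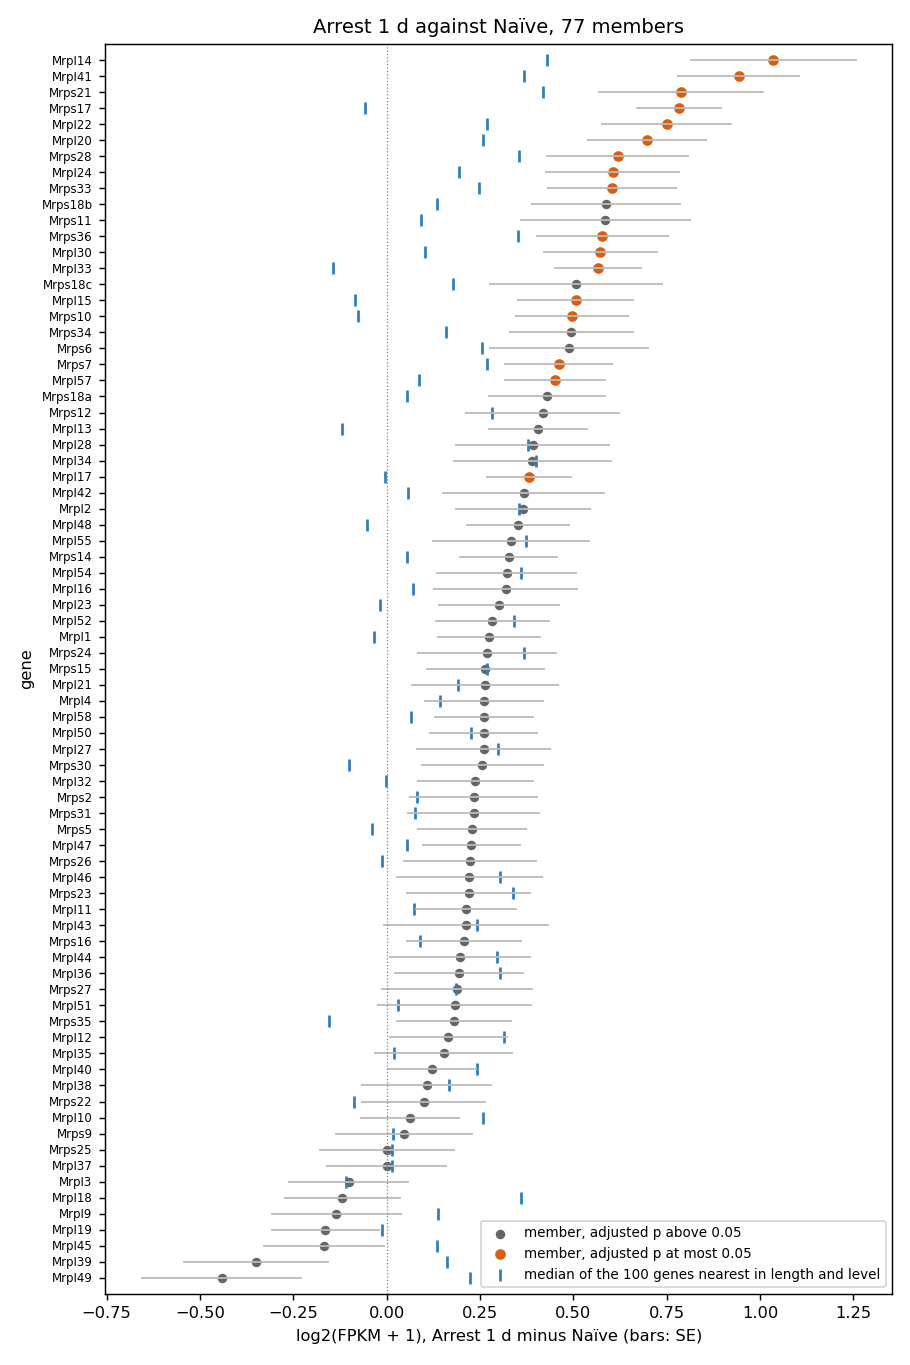
Fitted log2(FPKM + 1) difference of Arrest 1 d from Naïve with its SE (points and bars) for the 77 members, with the median of the 100 other genes nearest in length and level (blue ticks). The 17 called members (orange) all lie to the right of 0, from 0.38 to 1.04.

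Mrps17, a small-subunit protein with a bacterial counterpart that binds ribosomal RNA, had the smallest adjusted p among the members in each of the 5 comparisons in which a member was called. The Naïve libraries held 8.34, 6.87, 8.36, 7.51 and 4.58 FPKM. The Arrest 1 d libraries held 13.9, 11.4, 13.3 and 12.6 FPKM and the Arrest 0.5 d libraries 11.6, 11.3, 10.4 and 11.5 FPKM. The Adr 0.5 d libraries held 9.99, 9.32, 9.96 and 11.9 FPKM and the Adr 1 d libraries 12.2, 11.2, 11.5 and 11.9 FPKM. All 16 libraries from 0.5 and 1 day lay above all 21 others, whose highest value was the 8.36 FPKM of a Naïve library. Only 5 of the tested genes (0.0302%) separated these libraries in that direction, a count made after the values were seen. The other 4 were Cox7b, of cytochrome c oxidase, Atp5l, of ATP synthase, Acot13, a thioesterase, and Gm10221. At 3 and 7 days Mrps17 ranged from 4.99 to 8.16 FPKM and overlapped Naïve in all 4 groups.

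Against Naïve, Mrps17 differed by 0.78 ± 0.12 (SE, log2) in Arrest 1 d with an adjusted p of 0.000195 (limma). The differences were 0.61 in Arrest 0.5 d (adjusted p = 0.00384) and 0.67 in Adr 1 d (adjusted p = 0.00977). In Adr 0.5 d the libraries did not overlap Naïve either, but the difference of 0.49 missed the threshold (adjusted p = 0.06). Against day 7 of the same arm, the 1 day level was higher by 0.91 in Arrest (adjusted p = 0.000133) and by 0.69 in Adr (adjusted p = 0.0101). The 100 genes nearest in length and level had a median of -0.06 in Arrest 1 d against Naïve, and the call of Mrps17 there held in all 12 alternative settings and in all 13 fits without 1 library.

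Mrpl41, a mitochondria-specific protein of the large subunit, followed the same course with more spread. The Naïve libraries held 36.9, 44.2, 52.3, 54.2 and 35.99 FPKM and the Arrest 1 d libraries 70.0, 82.4, 94.0 and 99.4 FPKM, without overlap. The Adr 1 d libraries held 84.2, 63.2, 68.6 and 67.7 FPKM and also lay above Naïve. The Arrest 0.5 d libraries held 92.5, 72.1, 67.1 and 50.6 FPKM, and the last of them lay within the Naïve range. The differences from Naïve were 0.94 ± 0.17 (SE, log2) in Arrest 1 d (adjusted p = 0.000958), 0.63 in Arrest 0.5 d (adjusted p = 0.0305) and 0.67 in Adr 1 d (adjusted p = 0.0497), all with limma. The Arrest 7 d libraries were back at 41.7 to 50.6 FPKM, 0.94 below Arrest 1 d on the log2 scale (adjusted p = 0.00741). The calls at Arrest 0.5 d and Adr 1 d were lost with the length trend removed (adjusted p = 0.0568 and 0.0975), and they held in 7 and 5 of 12 alternative settings.

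Mrpl33, a small protein near the exit site for transfer RNA, varied little between Naïve libraries. The Naïve libraries held 10.6, 10.7, 10.4, 11.7 and 11.1 FPKM. The Arrest 0.5 d libraries held 16.7, 15.03, 14.4 and 16.4 FPKM and the Arrest 1 d libraries 19.0, 13.4, 18.6 and 15.9 FPKM, and both groups lay above Naïve without overlap. The differences were 0.48 ± 0.12 (SE, log2; adjusted p = 0.0206) and 0.57 ± 0.12 (adjusted p = 0.00358). The level in Adr 1 d, at 16.7, 12.9, 12.4 and 18.5 FPKM, was 0.64 above that in Adr 7 d (adjusted p = 0.0296, limma), and that in Arrest 1 d was 0.47 above Arrest 7 d (adjusted p = 0.0395). The gene spans much of Rbks on the opposite strand (mean 1.40 FPKM), and the strand counted is not stated.

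**Figure D4:**
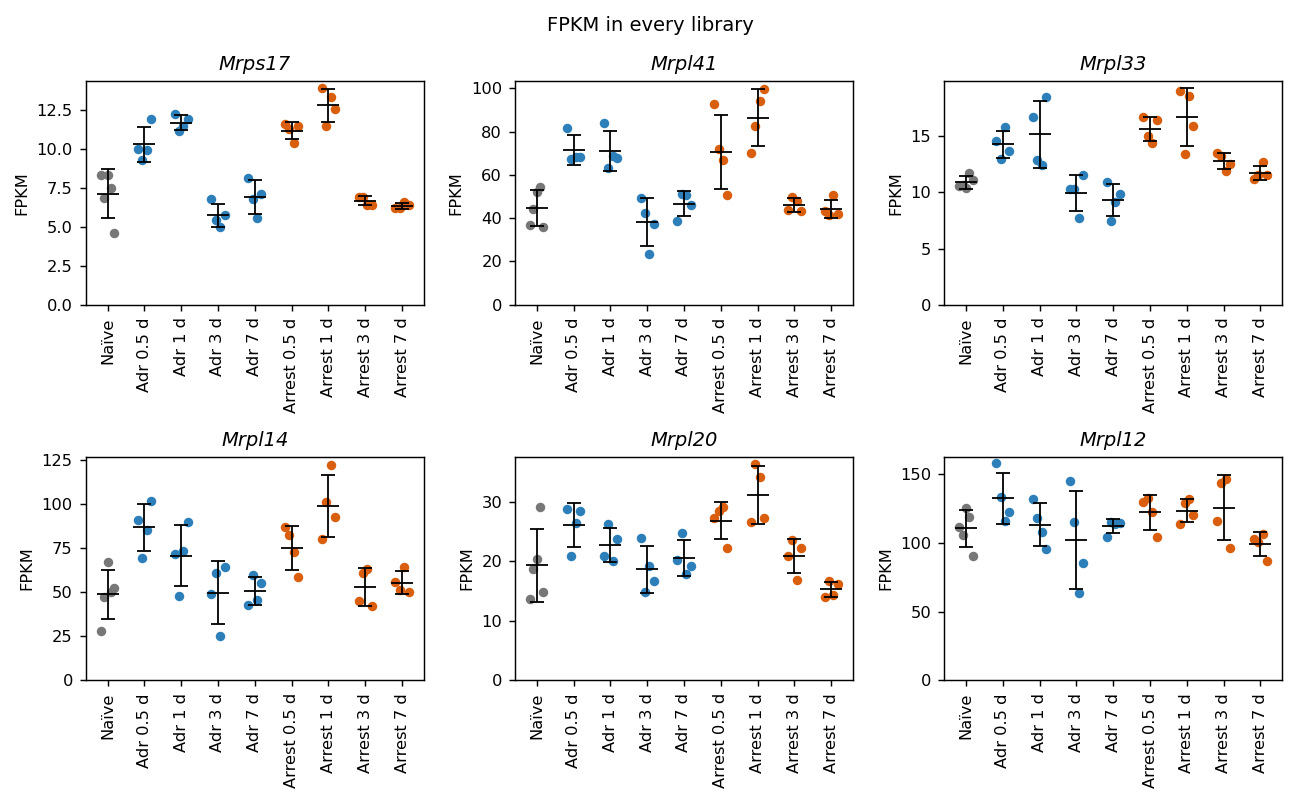
FPKM in every library (points) by group for 6 members, with the group mean and SD (bars, n = 5 for Naïve and 4 for the others). For Mrps17 all libraries from 0.5 and 1 day lie above all the others, and Mrpl12, the stalk protein, shows no called difference.

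Mrpl14 sits on the face of the large subunit that meets the small one. Its Naïve libraries held 28.2, 47.0, 67.2, 49.9 and 52.3 FPKM and its Arrest 1 d libraries 80.0, 101, 122 and 92.5 FPKM, without overlap. It had the largest difference of the members, 1.04 ± 0.22 (SE, log2; adjusted p = 0.00487, limma). By the coordinates in the table it overlaps Tmem63b by 584 bases on the opposite strand (mean 13.5 FPKM), so its own share of the fragments is uncertain.

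Mrpl20, a protein that binds ribosomal RNA and has a bacterial counterpart in subunit assembly, was the member that fell furthest from day 1 to day 7 after arrest. Its Arrest 1 d libraries held 26.6, 36.5, 34.2 and 27.3 FPKM and its Arrest 7 d libraries 14.1, 16.7, 14.3 and 16.1 FPKM, without overlap. The difference was 0.97 ± 0.17 (SE, log2; adjusted p = 0.00481). Against Naïve, at 13.7, 18.7, 20.4, 29.1 and 14.8 FPKM, it was 0.70 (adjusted p = 0.00763, limma) and the groups overlapped through Naïve replicate 4.

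Mrps21, the most abundant member, held 82.2, 112, 139, 166 and 89.2 FPKM in Naïve and 164, 200, 245 and 188 FPKM in Arrest 1 d. The difference was 0.79 ± 0.22 (SE, log2; adjusted p = 0.0261) and the groups touched, with 1 Naïve library above the lowest Arrest 1 d library. Mrpl22, which lines the tunnel for the nascent chain, held 17.2, 20.8, 18.2, 17.5 and 11.3 FPKM in Naïve and 28.8, 28.02, 36.2 and 23.4 FPKM in Arrest 1 d. Its groups did not overlap and the difference was 0.75 ± 0.17 (adjusted p = 0.00784). Mrps28, of the small subunit, held 58.5, 58.5, 47.3, 26.9 and 47.2 FPKM in Naïve and 73.8, 66.3, 84.5 and 62.1 FPKM in Arrest 1 d, without overlap (0.62 ± 0.19, adjusted p = 0.0425). Mrpl24, at the tunnel exit, held 13.2, 13.8, 11.5, 22.6 and 9.53 FPKM in Naïve and 19.4, 21.2, 22.6 and 21.4 FPKM in Arrest 1 d (0.61 ± 0.18, adjusted p = 0.0370), and it overlapped through Naïve replicate 4. All adjusted p-values are from limma.

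The 8 further members that rose at Arrest 1 d had differences from 0.38 (Mrpl17) to 0.60 (Mrps33), with adjusted p-values from 0.0207 (Mrpl30) to 0.0491 (Mrps7). The others among them were Mrpl15, Mrpl57, Mrps10 and Mrps36, whose product has since been placed in the alpha-ketoglutarate dehydrogenase complex. Mrps10, the least abundant member, held 2.17, 2.60, 2.90, 2.27 and 3.29 FPKM in Naïve and 5.14, 4.01, 3.87 and 3.58 FPKM in Arrest 1 d, without overlap (0.50 ± 0.15, adjusted p = 0.0418, limma).

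Several members with well-known roles did not pass the test at Arrest 1 d. Of the stalk proteins, Mrpl12 differed by 0.17 ± 0.16 (SE, log2), Mrpl10 by 0.06 ± 0.13 and Mrpl11 by 0.21 ± 0.14. At the tunnel exit, Mrpl45, which holds the ribosome at the inner membrane, differed by -0.17 ± 0.16 and Mrpl23 by 0.30 ± 0.16, while Mrpl24 passed. Mrpl3 and Mrpl44, in which inherited variants cause cardiomyopathy, differed by -0.10 ± 0.16 and 0.20 ± 0.19. Mrpl58, which frees peptides from stalled ribosomes, differed by 0.26 ± 0.13, and Mrps12, of the decoding centre, by 0.42 ± 0.21. The paralogues Mrps18a, Mrps18b and Mrps18c, of which the first sits in the large subunit, differed by 0.43 ± 0.16, 0.59 ± 0.20 and 0.51 ± 0.23. Mrps22 and Mrps16, known from inherited disease, differed by 0.10 ± 0.17 and 0.21 ± 0.15, Mrps30, a large-subunit protein despite its name, by 0.26 ± 0.16 and Mrps27 by 0.19 ± 0.20. The adjusted p-values of these members ranged from 0.0691 (Mrps18b) to 0.844 (Mrpl10). The lowest values were those of Mrpl49 (-0.44 ± 0.22, adjusted p = 0.227, limma) and Mrpl39 (-0.35 ± 0.20, adjusted p = 0.304). Mrpl49 held 16.8, 17.6, 19.1, 13.4 and 19.7 FPKM in Naïve and 9.52, 14.5, 12.6 and 13.3 FPKM in Arrest 1 d, and the groups overlapped by 1 library of each.

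Short genes as a whole stood higher in Arrest 1 d than in Naïve, and many members are short. The correlation of each library's differences with gene length over all tested genes averaged 0.22 in Naïve (0.17 to 0.27) and -0.07 in Arrest 1 d (-0.15 to 0.00). It averaged -0.08 in Adr 0.5 d and 0.15 to 0.17 in both groups at 7 days. With that trend removed from each library, 12 of the 77 members were called at Arrest 1 d and their median stayed at 0.26. The 39 shorter members had a median of 0.33 with 10 called, and the 38 longer members 0.24 with 7 called. These 7 were picked by their rise in this same comparison, so their place against their neighbours is a description and no support. Each lay above the median of its 100 nearest genes, by 0.36 (Mrpl57) to 0.84 (Mrps17). Those medians were -0.15 to -0.01 for Mrps17, Mrpl33, Mrpl17, Mrpl15 and Mrps10, 0.10 for Mrpl30 and 0.09 for Mrpl57. With the trend removed Mrpl57 was no longer called (adjusted p = 0.0713, limma). The part of length, or of the RNA quality that can go with it, in these differences was not tested beyond these values.

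**Figure D5:**
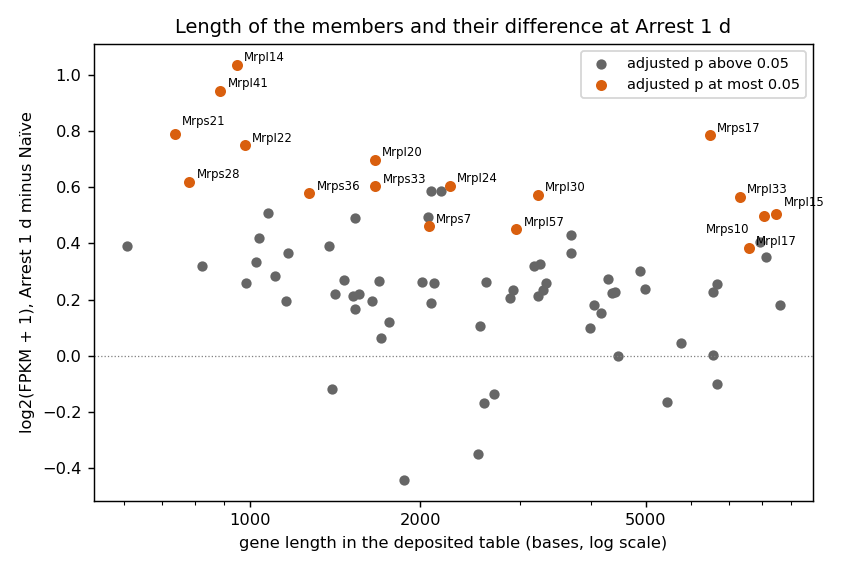
Gene length in the deposited table (horizontal axis, log scale, bases) against the fitted log2(FPKM + 1) difference of Arrest 1 d from Naïve (vertical axis) for the 77 members. The called members (orange) fall at both ends, from Mrps21 and Mrps28 among the shortest to Mrps10 and Mrpl15 among the longest.

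Promoter sequences are shown for 4 members that rose at Arrest 1 d, those with the smallest adjusted p-values and 1 promoter entry each, and for Mrpl49, the lowest in that comparison. They are from the RefSeq promoter table (GRCm38.p6), which had entries for 68 of the 77 members. Each line runs 5′ to 3′ on the gene's strand from 100 bases before the start to 30 bases after it. Capitals mark matches on either strand to 6 strings. The ETS family was searched as CCGGAAG. Part of the site of NRF1, a regulator of nuclear genes for mitochondria, was searched as CATGCGC. The string for YY1 was AAGATGGCG, which can share its first bases with the end of the ETS string. The GC box was searched as GGGCGG. The string for the TATA box was TATAAA, and the CCAAT box was searched by the letters of its name. The positions are chr5:129715397-129715526 for Mrps17 (plus strand), chr2:24975069-24975198 for Mrpl41 (minus strand), chr5:31613851-31613980 for Mrpl33 (plus strand), chr17:45686249-45686378 for Mrpl14 (plus strand) and chr19:6057726-6057855 for Mrpl49 (minus strand).
Mrps17: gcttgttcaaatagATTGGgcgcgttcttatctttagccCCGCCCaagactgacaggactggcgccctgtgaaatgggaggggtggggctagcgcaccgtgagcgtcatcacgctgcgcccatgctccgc
Mrpl41: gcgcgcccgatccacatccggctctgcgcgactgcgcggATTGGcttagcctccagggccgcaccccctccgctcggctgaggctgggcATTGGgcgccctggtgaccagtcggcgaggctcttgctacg
Mrpl33: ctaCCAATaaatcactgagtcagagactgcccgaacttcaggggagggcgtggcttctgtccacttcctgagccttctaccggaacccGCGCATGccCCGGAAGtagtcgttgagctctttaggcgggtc
Mrpl14: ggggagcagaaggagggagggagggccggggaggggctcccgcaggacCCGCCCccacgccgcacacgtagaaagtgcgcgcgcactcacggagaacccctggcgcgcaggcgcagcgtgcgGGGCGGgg
Mrpl49: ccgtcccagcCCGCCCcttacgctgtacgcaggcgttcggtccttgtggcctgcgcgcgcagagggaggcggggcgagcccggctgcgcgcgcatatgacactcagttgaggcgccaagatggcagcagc

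Mrpl33 held an ETS match, an NRF1 match and a CCAAT box in this window, Mrpl41 a pair of CCAAT boxes, Mrps17 a GC box and a CCAAT box, Mrpl14 a pair of GC boxes and Mrpl49 a single GC box. Over the full windows of 250 bases before to 50 after the start, the ETS letters stood in 25 of 68 members (36.8%), in 18.7% of tested genes and in 8.86% of all windows. The NRF1 letters stood in 8 members (11.8%), in 7.39% of tested genes and in 3.91% of all windows. The YY1 letters also stood in 8 members (11.8%), in 3.31% of tested genes and in 1.4% of all windows. GC boxes stood in 50% of the members and 65.9% of tested genes, CCAAT boxes in 38.2% and 42.4%, and TATA boxes in 7.35% and 9.35%. Over all windows these 3 shares were 35.7%, 37.4% and 13.6%. Of the 15 members that rose at Arrest 1 d and had a window, 6 held the ETS letters, 3 the NRF1 letters and 0 the YY1 letters. These 6 strings were kept from 12 looked at in the same windows, after their shares were seen, and a match of letters does not show binding.

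At 0.5 day after arrest, 3 of the 77 members rose and none fell, beside 3.21% of all tested genes in either direction and 1.75% higher. This is 3.90% of the members, near the 3.53% higher and 5.21% in either direction among the genes of similar length and level, and 5.51% of the nearest genes were called. The called members were Mrps17, Mrpl41 and Mrpl33, with the values given above. The members' median was 0.17 and 65 of 77 were above 0, and 47 of 77 lay above their 100 nearest genes. The medians of the nearest genes had a median of 0.10, and the members' distance from them a median of only 0.03. Without Arrest 0.5 d replicates 1 or 2 only 1 member was called, beside 239 and 125 of all genes in place of 531. Without Adr 3 d replicate 3, 6 members were called, 1 of them lower, beside 910 of all genes. Mrpl39, which had the lowest difference of the members here, held 18.7, 9.85, 14.1 and 12.6 FPKM against 19.0, 21.4, 23.9, 20.8 and 16.4 FPKM in Naïve (-0.54 on the log2 scale, adjusted p = 0.119 with limma), and the groups overlapped by 1 library.

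With adrenaline alone, no member was called at 0.5 day, where 0.188% of all tested genes were (20 members had an unadjusted p up to 0.05). The median was 0.23, with 68 of 77 above 0 and 59 of 77 above their 100 nearest genes. The medians of the nearest genes had a median of 0.13, and the members' distance from them a median of 0.14. Over all tested genes the median was 0.04. The largest differences were those of Mrpl14 (0.85) and Mrpl41 (0.68), and the smallest those of Mrpl39 (-0.24) and Mrpl49 (-0.18). Calls over all tested genes numbered 31, and they moved with the setting, as did those of the members. With scaling by the fragments counted, 3 members and 83 genes in all were called, and with sample quality weights 8 members and 363 genes. Without Adr 3 d replicate 3 it was 3 members and 223 genes, and without Naïve replicate 3 it was 1 member and 42 genes. At 1 day, Mrps17 and Mrpl41 rose, 2 of 77, beside 0.69% of all tested genes in either direction and 0.375% higher, and 1.68% of the nearest genes. The median was 0.13 and 67 of 77 were above 0. The medians of the nearest genes had a median of 0.10, and the members' distance from them a median of 0.07. Scaling by fragments gave 7 called members and 213 genes in all, in place of 114. The count was 1 without any 1 of the Adr 1 d libraries, of Naïve replicates 1, 2 and 5 or of Adr 3 d replicates 2 and 4, and it was 4 without Adr 3 d replicate 3. Calls over all genes ran from 27 to 416 in the fits without 1 library.

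At 3 and 7 days no member was called in either arm. The background was 0% in Adr 3 d, Adr 7 d and Arrest 7 d and 0.139% in Arrest 3 d. At an unadjusted p up to 0.05, 6, 1, 1 and 1 members were found in Adr 3 d, Adr 7 d, Arrest 3 d and Arrest 7 d. The members' median in Adr 3 d was -0.11, with 25 of 77 above 0, and it was 0.06 without replicate 3, the library that stood apart. The largest differences there were those of Mrps18c (0.31) and Mrpl57 (0.25), and the smallest those of Mrpl1 (-0.49), of the stalk where transfer RNA leaves, and Mrpl3 (-0.45). In Arrest 3 d the median was 0.08, with Mrpl22 (0.38) and Mrps18c (0.36) highest and Mrpl3 (-0.30) and Mrpl1 (-0.25) lowest. In Adr 7 d it was -0.02, with Mrps27 (0.36) and Mrpl34 (0.33) highest and Mrpl1 (-0.31) and Mrpl43 (-0.29) lowest. In Arrest 7 d it was 0.01, with Mrpl34 (0.32) and Mrps2 (0.31) highest and Mrpl1 (-0.38) and Mrpl20 (-0.27) lowest.

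Arrest and Adr were compared at each time, a difference that holds the potassium chloride, the chest compressions and survival as well as the arrest. No member was called at any of the 4 times, beside 0% of all tested genes at 0.5, 1 and 3 days and 0.00605% at 7 days, which is 1 gene. At an unadjusted p up to 0.05, 0, 6, 3 and 2 members were found. At 1 day the members' median was 0.13 with 58 of 77 above 0, and Mrpl20 had the smallest unadjusted p of the members with a difference of 0.43 ± 0.17 (SE, log2; adjusted p = 0.702, limma). Scaled by the fragments counted, the members' median at 1 day was -0.0018 while that of all tested genes was -0.09. At 0.5, 3 and 7 days the medians were -0.06, 0.17 and 0.03. The difference between the Arrest and Adr effects was therefore not detectable with 4 libraries in each group, and the calls against Naïve in 1 arm do not show a difference between the arms.

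The decline from 1 to 7 days was compared within each arm, between different mice. By the expression of Xist and Ddx3y, the Arrest 1 d libraries came from 2 females and 2 males. The Arrest 7 d libraries came from 3 females and 1 male. In Arrest, 6 of the 77 members were higher at 1 day than at 7 days, beside 1.89% of all tested genes in either direction and 1.14% higher, and 5.55% of the nearest genes. They were Mrps17, Mrpl41, Mrpl20 and Mrpl33, given above, with Mrps10 (0.67, adjusted p = 0.0250) and Mrpl1 (0.65, adjusted p = 0.0174, limma). Mrpl1 held 14.9, 10.9, 12.7 and 12.9 FPKM at 1 day and 7.08, 8.76, 8.09 and 7.16 FPKM at 7 days, without overlap. Its Naïve libraries held 11.3, 11.2, 9.09, 8.87 and 11.9 FPKM. They lay above all Arrest 7 d libraries and overlapped those of Arrest 1 d. The median of the members was 0.27 with 67 of 77 above 0, against a median of 0.00 over all tested genes. It was 0.07 over the genes of similar length and level, and the medians of the nearest genes had a median of 0.13. The count was 3 without Arrest 1 d replicate 1 or 3 or Arrest 7 d replicate 4 and 11 without Adr 3 d replicate 3, while calls over all genes ran from 41 to 654 in the fits without 1 library.

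In Adr, Mrps17 and Mrpl33 were higher at 1 day than at 7 days, 2 of 77 members, and they were 2 of only 7 genes called among all those tested, 0.0423%, all of them higher. The median of the members was 0.17 with 64 of 77 above 0, against 0.01 over all tested genes and 0.04 for the medians of the nearest genes. Only 1 was called without Adr 1 d replicates 1 or 4 or Adr 7 d replicates 2 or 4, and 0 without Adr 7 d replicate 3.

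Mitochondrial ribosomal proteins whose symbols fall outside the pattern behaved in part like the members. Of 5 such genes, Chchd1 and Aurkaip1 rose at Arrest 1 d (0.96 with adjusted p = 0.000947, and 0.61 with adjusted p = 0.00179, limma), and Dap3, Ptcd3 and Gadd45gip1 were not called. Among 24 tested genes of mitochondrial ribosome assembly only Malsu1, whose product binds Mrpl14 on the face of the large subunit, rose (0.96), and the median of the list was -0.04.

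The rest of the translation machinery of mitochondria did not show the members' shift at Arrest 1 d. Of 15 translation factors 0 were called and the median was -0.14. Of 20 mitochondrial aminoacyl-tRNA synthetases 0 were called and the median was -0.06, and Aars2 fell at Arrest 0.5 d. Of 6 genes of mitochondrial transcription 0 were called. The 13 protein genes and 2 ribosomal RNA genes of the mitochondrial genome gave 0 calls, with medians of -0.03 and 0.05. The median of the protein genes hides a wide spread. Their differences ran from -0.71 (mt-Nd5) and -0.38 (mt-Nd6) to 1.04 (mt-Co3) and 1.16 (mt-Atp6). Among 9 regulators of nuclear genes for mitochondria, Myc rose at Arrest 0.5 d (1.46, adjusted p = 0.0433) and 1 d (1.48, adjusted p = 0.024, limma). Myc spread widely in Arrest 0.5 d, at 5.93 ± 5.15 FPKM (SD, n = 4). The other regulators were not called at these times, and at Arrest 1 d they ran from -0.44 (Ppargc1a) to 0.15 (Yy1). These lists are set beside 7.11% of all tested genes called and a median of 0.03, and no difference between lists was tested.

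A list of genes named as nuclear subunits of respiratory complex I gave 10 of 38 higher at Arrest 1 d, beside 3.88% of all tested genes. The median of the list was 0.54. Among the 10 were Ndufa11 and Ndufs4, and also Ndufa4, whose product has since been placed in cytochrome c oxidase. The list gave 3 of 38 higher at Arrest 0.5 d, beside 1.75% of all tested genes. Cytosolic ribosomal proteins gave 5 of 82 higher at Arrest 1 d with a median of 0.23, Rpl23a, Rpl27, Rplp0, Rplp2 and Rps28, beside 3.88% of all tested genes.

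Among the markers of heart muscle and other cells only the endothelial genes Kdr and Cdh5 were called at Arrest 1 d against Naïve, and the part of other cells in the members' differences was not tested. Kdr and Cdh5 fell, and the other 2 of the 4 endothelial markers stood above 0, at up to 0.43. The endothelial sum was 102 to 161 FPKM in Arrest 1 d and 140 to 151 FPKM in Naïve. Of 7 neutrophil markers 5 were tested and 0 called, and their sum was 6.52 to 20.3 FPKM in Arrest 1 d and 0 to 10.1 FPKM in Naïve. The sum of the 4 fibroblast markers was 248 to 329 FPKM in Arrest 1 d and 168 to 235 FPKM in Naïve, without overlap. The sum of 4 fat markers was 20.5 to 30.6 FPKM in Arrest 1 d and 12.3 to 24.3 FPKM in Naïve, with Adipoq, Plin1 and Ucp1 under 1 FPKM on average. The mitochondrial genome gave 21.7% to 27.3% of fragments in Arrest 1 d and 25.2% to 30.9% in Naïve. The 7 cardiomyocyte markers gave 0 calls with a median of -0.06. Their sum stood higher in Arrest 1 d, at 13200 to 15100 FPKM against 11400 to 13600 FPKM in Naïve, with overlap. Macrophage, fibroblast, red blood cell, fat and skeletal muscle markers gave 0 calls too, with medians of 0.18, 0.10, -0.63, 0.02 and -0.05.

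Several members share fragments with neighbours that cannot be assigned here. By the coordinates in the deposited table, 15 members overlap another gene with a mean of at least 1 FPKM, 14 of them on the opposite strand. They include Mrpl46 and Mrps11, which overlap each other, Mrpl24 with Rrnad1, Mrps7 with Mif4gd and Gga3, and Mrpl49 with Syvn1. The values of these members are uncertain to the extent that counting ignored strand, which is not stated.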

How the data were processed

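Left ventricular RNA was sequenced in 37 libraries by Novogene, and the study names FastQC for the quality check and HISAT2 as the aligner. The authors deposited 1 table of FPKM values with a gene length per gene and 1 column per library. The genome build, annotation, counting tool and strand are not given in the sources used here, and only 1 of the 78 genes had the same start and end as in the GRCm38 annotation at hand, so file coordinates are not printed. FPKM multiplied by length came out as whole multiples of 1 fragment (within 0.05) in 100% of the values checked. These were the values above 0 with lower counts, and the largest counts were not checked. The worth of 1 fragment gave the depth of 13.2 to 30.2 M fragments. These totals cover counting error only. The median-ratio factors of the libraries were identical, so the authors had scaled the table in that way.

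Values were converted to log2(FPKM + 1), so differences understate the change of low genes. Genes had to reach 0.5 FPKM in 4 or more libraries, which 16530 did. A single linear model of the 9 group means, without covariates, was fitted to them with limma 3.58.1 (R 4.3.3, trended eBayes), and p-values were adjusted by Benjamini-Hochberg within each of 14 comparisons (threshold 0.05). Whether replicates were separate cohorts is not stated, so p-values measure the spread between these libraries. The code was tested on simulated data. For the length trend, a loess curve (span 0.5) of each library's log2 differences on length was removed.

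The members and all gene lists were chosen with earlier results of these data known, and shares of promoters, the comparison of 0.5 and 1 day libraries with all others, and the splits by length were made after values were seen. Members are named if called in a comparison (all up to 12, otherwise the 8 largest rises and 4 largest falls), as the 2 largest and 2 smallest differences where none was called, as the 5 highest and 5 lowest levels, at the limit of the rule, or for a known role. Alternatives were other scalings, pseudocounts, filters, covariates, quality weights, a fit of 2 groups, the replicate number as a block and leaving out single libraries.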

Additional observations from a re-analysis of the deposited data

Results flagged for a closer look

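Within groups, 10 of 171 sets of 4 or 5 libraries held 1 library far from the others, about as many as chance gives at 1 in 20. The sets were the members' median and the FPKM of the 18 members called in any comparison, in each group. In Adr 3 d, replicate 3 was the lowest library for Mrpl30 (29.2 FPKM against 60.9 to 67.1), Mrps21 (69.9 against 140 to 146) and Mrps36 (20.1 against 39.99 to 40.7). In Arrest 7 d, replicate 3 was the highest for Mrpl24 (20.6 FPKM against 14.3 to 14.8) and Mrpl41 (50.6 against 41.7 to 43.2). In Arrest 3 d, replicate 2 was the highest for Mrps7 (44.7 FPKM against 24.6 to 27.6) and Mrps33 (26.8 against 21.1 to 21.5). Single libraries also stood out for Mrpl15 in Adr 1 d (replicate 3 lowest, 4.77 FPKM against 6.33 to 6.51), Mrpl30 in Arrest 1 d (replicate 3 highest, 98.3 against 81.4 to 82.0) and Mrpl41 in Adr 0.5 d (replicate 1 highest, 81.7 against 67.5 to 68.2). Mrpl30 was called at Arrest 1 d against Naïve with this library in the fit.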

How the results depend on the processing

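All called differences of single members kept their sign in every alternative, and 544 of 742 such repeats stayed past the threshold. At Arrest 1 d against Naïve, 6 members were called with quantile normalization, 8 without a filter, 8 in a fit of only those 2 groups and 1 with the description number as covariate, beside 1013, 828, 886 and 34 genes in all in place of 1176. For Adr 1 d the count was 7 with scaling by fragments, 5 with quality weights, 1 without rescaling, with a pseudocount of 0.1, without a filter or with the length trend removed, and 0 in the fit of 2 groups or with the description number, while calls over all genes ran from 0 to 233 in place of 114. For Adr 0.5 d it was 3 with scaling by fragments, 1 with the filter of mean 1 FPKM, 8 with weights and 1 with sex as covariate, beside 83, 47, 363 and 39 genes in all. For Arrest 0.5 d it was 5 with scaling by fragments or weights and 1 in the fit of 2 groups, beside 493, 725 and 361 genes in all. From 1 to 7 days it was 0 in the fit of 2 groups and 5 with weights in Adr, beside 0 and 239 genes in all, and 23 with weights in Arrest, beside 1815. Leaving out single libraries gave 0 to 3 called members for Adr 0.5 d, 1 to 4 for Adr 1 d, 1 to 6 for Arrest 0.5 d, 5 to 21 for Arrest 1 d, 0 to 2 for Adr 1 d against 7 d and 3 to 11 for Arrest 1 d against 7 d, and a median of -0.19 to 0.0645 for Adr 3 d. The cause was not tested.

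The replicate numbers were not used as pairs, since in 0 of 14 comparisons did every pair correlate above 0.1 (-0.28 to 0.24). Pairs of unlike number were not looked at, so this rule cannot exclude that some libraries were paired. With the replicate block, 7 members were called at Arrest 1 d and 1 at Adr 1 d, beside 768 and 49 genes in all. Scaling by fragments moved the median of all genes by up to 0.1 and that of the members in Adr 3 d to 0.00. Libraries held at least 13.2 M fragments and all members lay above 3 FPKM on average, and whether depth touched them less than other genes was not tested.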
